A study of Mus musculus with 7 samples.

Results

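The visual cycle genes of the retinal pigment epithelium (RPE) were followed in aged mouse RPE that had received a gene-therapy vector. The set comprised the 9 genes Rpe65, Lrat, Rdh5, Rdh10, Rlbp1, Rgr, Rrh, Stra6 and Ttr. They were taken by symbol from a count table of 21861 rows, and each was found on a single row. The 7 libraries came from RPE of aged mice collected 12 weeks after treatment with an adeno-associated virus (AAV). In the control group, AAV-GFP, the vector carried green fluorescent protein (3 libraries). In the other group, AAV-GSTA4, it carried GSTA4, a glutathione transferase that conjugates reactive aldehydes from lipid peroxidation (4 libraries). The AAV serotype, the promoter that drives the transgene, the route of delivery, the strain, the sex and the exact age of the mice are not given in the sources used here. Nothing in the labels says whether libraries came from separate animals, so p-values measure only the spread between these samples. The comparison asks how the vector-borne GSTA4 was accompanied by changes in RPE transcripts, and here in those of the retinoid machinery.

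The RPE regenerates the chromophore of the visual pigments. Retinol reaches the cell bound to its plasma carrier complex or returns from the photoreceptors, is stored as retinyl esters, is isomerised to the cis form and is oxidised to cis-retinal, which goes back to the outer segments. Loss of enzymes of this pathway causes inherited retinal dystrophies, and their transcripts are widely used to mark differentiated RPE.

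Upstream sequences are shown for 5 members: Rpe65, which encodes the isomerase; Rgr, which had the most counts; and Lrat, Rdh5 and Stra6, whose libraries did not overlap between the groups. The RefSeq promoter table (GRCm38.p6) held 7 of the 9 genes. Each run gives the 250 bases before the annotated start, 5′ to 3′ on the gene's strand. Capitals mark TAATCC, the core recognised by OTX and CRX homeodomain factors, and the E-boxes CATGTG and CACGTG, both bound by MITF, all searched on both strands. The windows are chr3:159598931-159599180 (plus strand) for Rpe65, chr14:37049015-37049264 (minus) for Rgr, chr3:82903975-82904224 (minus) for Lrat, chr10:128919298-128919547 (minus) for Rdh5 and chr9:58128838-58129087 (plus) for Stra6. For Stra6, which has 4 starts in the table, the most upstream was taken. The Rdh5 and Stra6 windows lie inside the wider GENCODE gene spans but in no exon of them, and the last 6 bases of the Rpe65 window lie in its annotated first exon.
Rpe65: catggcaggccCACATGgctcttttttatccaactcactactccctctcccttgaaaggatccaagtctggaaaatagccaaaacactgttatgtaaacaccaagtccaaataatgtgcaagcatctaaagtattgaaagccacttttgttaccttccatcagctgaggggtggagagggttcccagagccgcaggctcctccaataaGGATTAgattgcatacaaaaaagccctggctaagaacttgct
Rgr: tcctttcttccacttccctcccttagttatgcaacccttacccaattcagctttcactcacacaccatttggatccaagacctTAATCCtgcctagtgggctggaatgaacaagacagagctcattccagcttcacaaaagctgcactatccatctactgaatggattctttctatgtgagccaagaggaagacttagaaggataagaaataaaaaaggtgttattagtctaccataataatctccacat
Lrat: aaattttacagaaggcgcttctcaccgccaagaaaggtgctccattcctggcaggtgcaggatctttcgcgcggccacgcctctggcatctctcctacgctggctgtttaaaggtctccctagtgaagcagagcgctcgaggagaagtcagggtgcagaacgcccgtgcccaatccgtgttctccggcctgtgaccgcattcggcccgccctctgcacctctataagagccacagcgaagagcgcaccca
Rdh5: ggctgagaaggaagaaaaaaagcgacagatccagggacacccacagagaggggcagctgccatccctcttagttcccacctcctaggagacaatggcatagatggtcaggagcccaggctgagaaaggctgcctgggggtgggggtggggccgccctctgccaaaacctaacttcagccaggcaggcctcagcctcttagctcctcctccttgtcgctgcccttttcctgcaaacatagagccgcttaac
Stra6: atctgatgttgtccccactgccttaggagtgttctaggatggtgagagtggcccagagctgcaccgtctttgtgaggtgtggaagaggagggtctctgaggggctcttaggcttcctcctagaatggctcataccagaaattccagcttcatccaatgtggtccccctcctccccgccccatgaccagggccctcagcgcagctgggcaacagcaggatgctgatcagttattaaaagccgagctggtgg

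TAATCC was found in 2 of the 7 member windows, 42 bases before the start of Rpe65 and 167 bases before that of Rgr. It was found in 6.25% of all 32851 windows of the table. CATGTG was found in 2 of 7, 239 bases before the start of Rpe65 and 124 bases before that of Rlbp1, against 12.3% of all windows. CACGTG was found in 0 of 7, against 6.02%. The windows of Lrat, Rdh5 and Stra6 held none of these letters. No motif overlaps another, and a match is a description of the sequence only.

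The libraries held 15329181 to 28998964 counts. Levels are CPM, counts scaled to library size by the trimmed mean of M-values (TMM), and are given in replicate order, 1 to 3 for AAV-GFP and 1 to 4 for AAV-GSTA4. The floor of detection, 3 counts, corresponds to 0.111 to 0.176 CPM. The transgene row hGSTA4 had 3, 1 and 1 counts with AAV-GFP and 4209, 5239, 45 and 1184 with AAV-GSTA4, so the labels and the row went together in all 7 libraries. Transgene level was low in AAV-GSTA4 replicate 3. The d2EGFP row had 99 counts in AAV-GFP replicate 1, fewer than the 163 in AAV-GSTA4 replicate 1. AAV-GFP replicate 3 stood apart, its log2 CPM correlating on average at 0.838 with the rest, against 0.910 to 0.926 elsewhere. Of 19 RPE markers outside the visual cycle, 18 lay above the floor in every library. Cldn19, a tight junction claudin, had 2 counts in AAV-GSTA4 replicate 3 and averaged 2.14 CPM in AAV-GFP and 0.705 CPM in AAV-GSTA4. Best1, the basolateral anion channel bestrophin, was also scarce, at 2.27 and 2.46 CPM.

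In brief, 8 of the 9 genes had a higher level in AAV-GSTA4 by 1.48-fold to 2.38-fold, where 44.6% of all genes had a positive log2 fold change, although Rlbp1, Rrh and Ttr turned slightly negative when libraries were scaled to other RPE markers. Rdh10, with a log2 fold change of -0.03, did not share this. None of the 9 passed the threshold of 0.05 in edgeR's quasi-likelihood test, adjusted over 15075 genes. Over all genes 0 were called, or 0%, with 1794 at an unadjusted p-value under 0.05. The smallest adjusted p-value of any gene in this edgeR test was 0.363. The transgene row hGSTA4, with a log2 fold change of 10.7, had that value and was not called either. DESeq2 called 2 of the 9, Stra6 and Lrat, both higher, where it called 0.968% of 11369 genes as higher. These were bulk samples, in which fewer cells of a type and less RNA per cell cannot be told apart.

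Supply of retinol to the RPE is represented by Ttr and Stra6. Ttr encodes transthyretin, which carries the complex of retinol and its binding protein. Its level was 13490.2, 12892 and 3747 CPM with AAV-GFP and 12089, 10596, 20698 and 16089 CPM with AAV-GSTA4. The groups overlapped, with AAV-GFP replicate 3 far below the rest and AAV-GSTA4 replicates 1 and 2 below AAV-GFP replicates 1 and 2. The log2 fold change of Ttr was 0.57 ± 0.49 (SE; edgeR adjusted p = 0.666).

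Stra6 encodes the cell-surface receptor that takes retinol up from its binding protein. Its level was 905, 836 and 685 CPM with AAV-GFP and 2062, 1156, 2643 and 1844 CPM with AAV-GSTA4. Every AAV-GSTA4 library lay above every AAV-GFP library. The mean went from 809 ± 112 CPM (n = 3, SD) to 1926 ± 614 CPM (n = 4, SD), or a log2 fold change of 1.25 ± 0.34 (SE). This was the highest fold change of the 9 genes, at 2.38-fold with an unadjusted 95% interval from 1.41-fold to 4.02-fold. The adjusted p-value was 0.363 in edgeR, 0.0589 in limma-voom and 0.0112 in DESeq2. Over the alternatives the adjusted p-value ranged from 0.0112 to 0.865.

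Storage as ester is the work of Lrat, lecithin retinol acyltransferase. Its level was 1869.8, 1305 and 766 CPM with AAV-GFP and 2912, 2275, 3618 and 2835 CPM with AAV-GSTA4. The groups did not overlap. The mean was 1313 ± 552 CPM (n = 3, SD) with AAV-GFP against 2910.2 ± 551 CPM (n = 4, SD) with AAV-GSTA4, or a log2 fold change of 1.15 ± 0.37 (SE). The fold was 2.22 with an unadjusted 95% interval from 1.25 to 3.91. The adjusted p-value was 0.363 in edgeR, 0.0627 in limma-voom and 0.0394 in DESeq2, and over the alternatives it ranged from 0.0394 to 0.865.

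Rpe65 encodes the isomerohydrolase that turns retinyl ester into cis-retinol, the step that defines the pathway. Its level was 9201, 4784 and 1765 CPM with AAV-GFP and 6547, 5977, 11819.9 and 9945 CPM with AAV-GSTA4. The AAV-GFP libraries differed more among themselves than the group means did, and AAV-GFP replicate 1 exceeded AAV-GSTA4 replicates 1 and 2. The means were 5250.1 ± 3739.8 CPM (n = 3, SD) and 8572 ± 2785 CPM (n = 4, SD). The log2 fold change was 0.71 ± 0.54 (SE; edgeR adjusted p = 0.615). An exact two-sided permutation test of log2 CPM over the 35 relabellings gave p = 0.171, where the smallest possible value is 0.0286. Leaving out AAV-GFP replicate 3 gave 0.30 for Rpe65, and leaving out AAV-GFP replicate 1 gave 1.39.

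Oxidation of cis-retinol is assigned to Rdh5, the main cis-retinol dehydrogenase of the RPE, with Rdh10 as another retinol dehydrogenase of the same tissue. Rdh5 stood at 1954, 2009.6 and 1246 CPM with AAV-GFP and at 3614, 2094, 4312 and 3004 CPM with AAV-GSTA4. The groups did not overlap, although AAV-GSTA4 replicate 2 lay just above AAV-GFP replicate 2. The log2 fold change of Rdh5 was 0.91 ± 0.35 (SE; edgeR adjusted p = 0.383). By library totals without scaling, the groups overlapped for Rdh5. Of the 2809 exonic bases of Rdh5 in GENCODE M21, 720 are shared with exons of Bloc1s1 on the same strand, so reads there could not be assigned to a single gene by position alone.

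Rdh10, which also starts retinoic acid synthesis from retinol in the embryo, followed another order. It stood at 1409.9, 1146 and 679 CPM with AAV-GFP and at 1928, 591, 976 and 723 CPM with AAV-GSTA4. AAV-GSTA4 replicate 1 was the highest of the 7 libraries and AAV-GSTA4 replicate 2 the lowest. The log2 fold change was -0.03 ± 0.44 (SE), with a 95% interval from -1.03 to 0.96 (edgeR adjusted p = 0.986). Its sign turned in 7 of the 18 alternatives, so no direction is given for Rdh10.

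Rlbp1 encodes CRALBP, the soluble protein that binds cis-retinol and cis-retinal in the RPE and also in Müller glia. It stood at 2847, 2514 and 1713 CPM with AAV-GFP and at 4338, 2775, 4893 and 3934 CPM with AAV-GSTA4. AAV-GSTA4 replicate 2 lay between AAV-GFP replicates 1 and 2, and the other 3 AAV-GSTA4 libraries lay above all AAV-GFP libraries. The log2 fold change was 0.76 ± 0.33 (SE; edgeR adjusted p = 0.413).

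Rgr and Rrh encode opsins of the RPE: Rgr a retinal isomerase driven by light, and Rrh peropsin. Rgr stood at 37672, 28497 and 12261 CPM with AAV-GFP and at 49147, 34338, 61437 and 51269.7 CPM with AAV-GSTA4. Only AAV-GSTA4 replicate 2 lay within the range of the AAV-GFP libraries. The log2 fold change of Rgr was 0.91 ± 0.47 (SE; edgeR adjusted p = 0.469). Rrh stood at 729, 597 and 245 CPM with AAV-GFP and at 725, 642, 1078 and 890.4 CPM with AAV-GSTA4. AAV-GFP replicate 1 exceeded AAV-GSTA4 replicates 1 and 2, and the log2 fold change of 0.67 ± 0.39 (SE) had an edgeR adjusted p of 0.502.

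**Figure D1:**
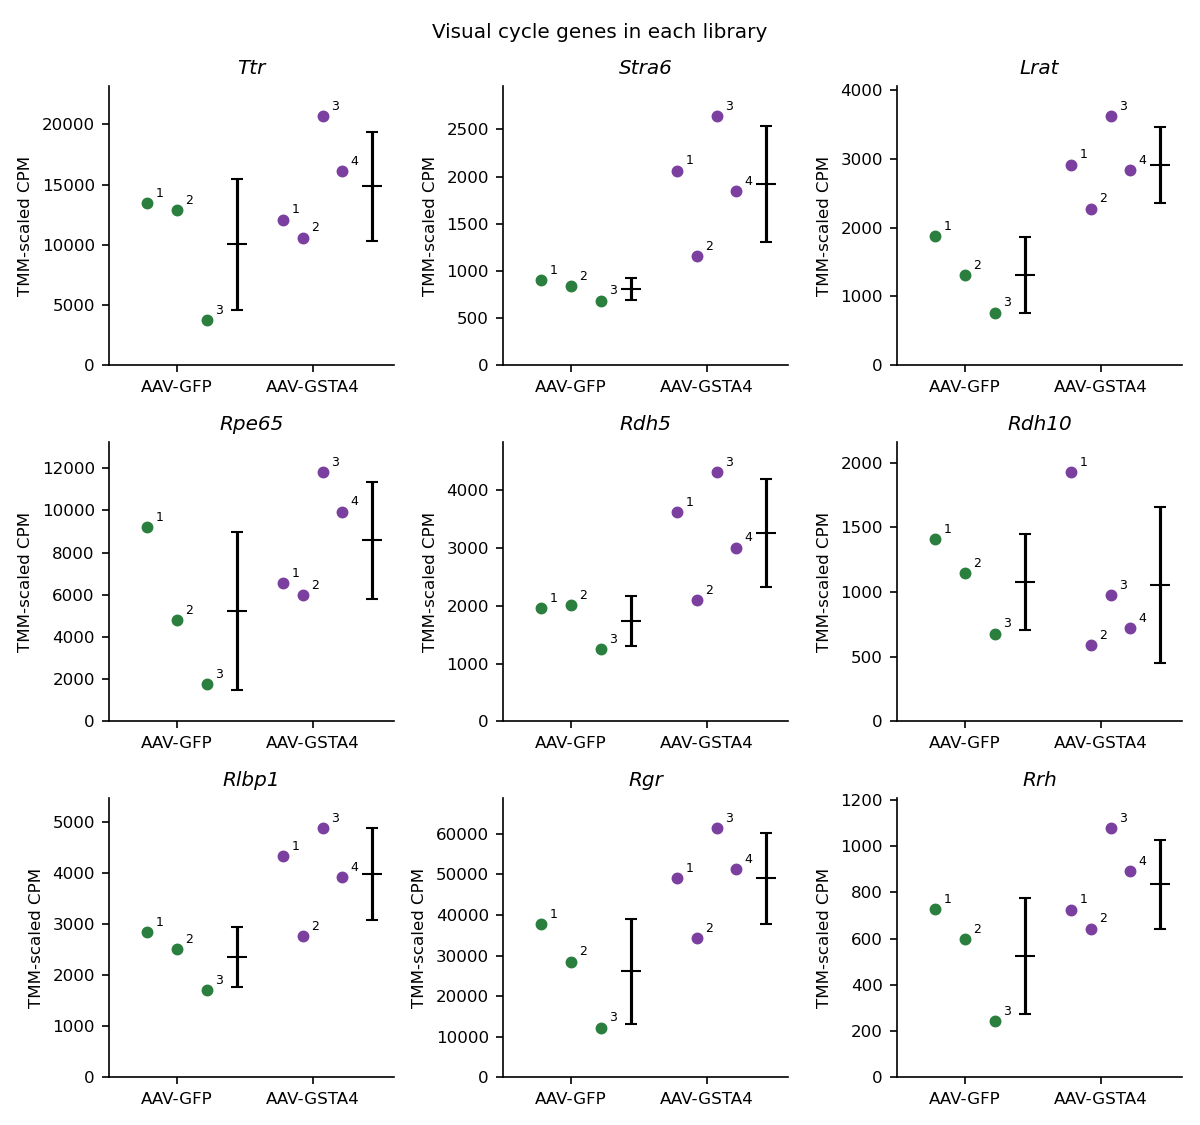
TMM-scaled CPM of the 9 visual cycle genes in each library, with a panel per gene, a point per library labelled by replicate number, and a bar for mean ± SD (n = 3 AAV-GFP, n = 4 AAV-GSTA4). The groups do not overlap for Stra6, Lrat and Rdh5, and AAV-GSTA4 replicate 3 is highest for every gene but Rdh10.

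As a set, 4 of the 9 genes (Stra6, Lrat, Rdh5 and Rlbp1) had an unadjusted p-value under 0.05 and were higher in AAV-GSTA4, where 5.27% of all genes did so. The groups did not overlap for 3 of the 9, all higher, where 6.44% of all genes were higher without overlap and 5.61% lower. Most of the 9 genes varied together over the same 7 libraries, so they are not independent entries beside those shares. The median log2 fold change of the 9 was 0.76, beside -0.07 over all genes tested. Libraries decided part of these counts. Without AAV-GFP replicate 1, 7 of the 9 were higher without overlap and the median was 1.00, and without AAV-GSTA4 replicate 2, 6 were. Without AAV-GFP replicate 3, the library that stood apart, 4 were higher without overlap and the median was 0.57. Smaller groups overlap less easily, and the share over all genes was not taken with a library left out. A rise in these counts is therefore not a result about the 9 genes. Leaving out AAV-GFP replicate 3 or AAV-GFP replicate 1 gave log2 fold changes of 0.17 or 0.84 for Ttr, 0.33 or 0.99 for Rrh and 0.57 or 1.27 for Rgr.

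The genes ranked the libraries alike at both ends, with Rdh10 as the exception. AAV-GFP replicate 3 was the lowest library and AAV-GSTA4 replicate 3 the highest library for 8 of the 9 genes, all but Rdh10. Pearson's r of log2 CPM over the 7 libraries ranged from 0.703 to 0.989 among the 28 pairs of those 8 genes and from 0.225 to 0.389 for Rdh10 with each of them. These values are a description: all pairs share the same 7 libraries, their scaling and the library that stood apart. AAV-GSTA4 replicate 3, with the highest levels of the 8 genes, was also the AAV-GSTA4 library with the least hGSTA4, at 2.64 CPM against 43.6 to 251 CPM in the other AAV-GSTA4 libraries.

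**Figure D2:**
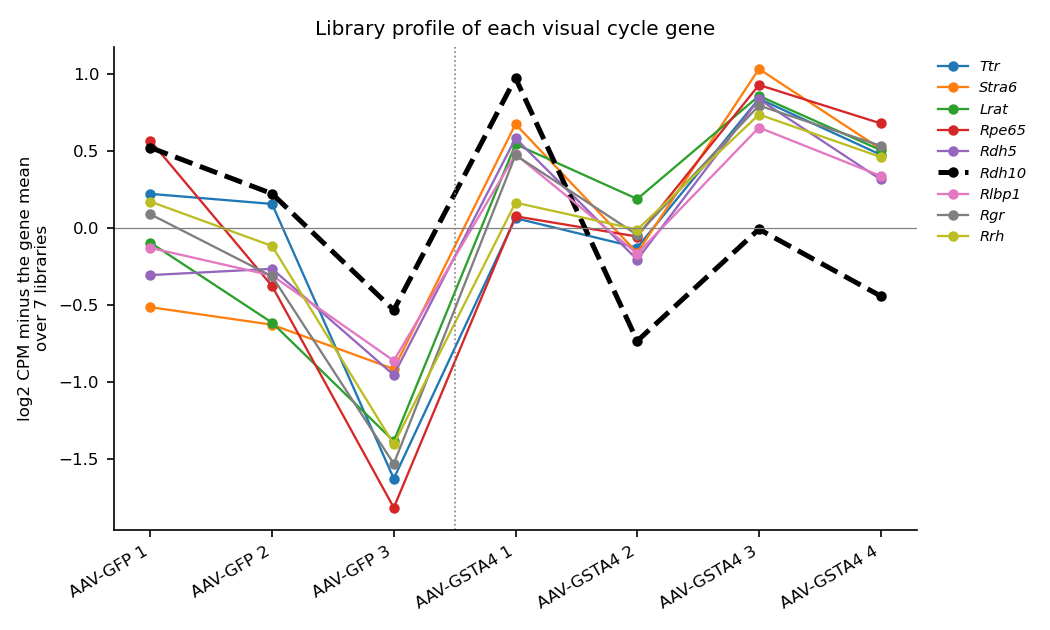
Log2 CPM of each gene minus its own mean over the 7 libraries (vertical axis), by library (horizontal axis, AAV-GFP left of the dotted line). Lines join the values of a gene and imply no order of libraries. The dashed line is Rdh10, whose highest library is AAV-GSTA4 replicate 1, and the other 8 lines share their lowest and highest libraries.

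The share of the libraries given to these genes was large. Their counts made up 6.93%, 5.72% and 3.14% of all counts with AAV-GFP and 8.05%, 5.47%, 9.68% and 8.47% with AAV-GSTA4. The summed level was 49254 ± 23934 CPM (n = 3, SD) with AAV-GFP against 86454 ± 21046 CPM (n = 4, SD) with AAV-GSTA4, with AAV-GSTA4 replicate 2 inside the AAV-GFP range. Rgr alone held 53.0% ± 0.774 (SD, n = 3) of that sum with AAV-GFP against 56.9% ± 1.58 (SD, n = 4) with AAV-GSTA4. Every AAV-GSTA4 library was above every AAV-GFP library in this share. The difference was not tested, and how often other such shares separate the groups was not taken.

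Most other RPE markers also had positive fold changes. Among 19 RPE markers outside the visual cycle, 14 had a positive log2 fold change and 5 a negative one, with a median of 0.57 under TMM scaling. The negative ones were Cldn19 (-1.59), Mlana (-0.94), Pmel (-0.70), Tyrp1 (-0.47) and Dct (-0.07). Of the 19 markers 0 passed in edgeR. Unadjusted p-values under 0.05 numbered 4, all higher, where 5.27% of all genes were higher at that level. DESeq2 called 1 (Sulf1, a heparan sulfatase, higher), where it called 0.968% of genes as higher. The summed level of the 19 markers was 8242 to 24464 CPM in AAV-GFP and 21872 to 33606 CPM in AAV-GSTA4, with AAV-GFP replicate 3 again the lowest. The visual cycle genes held 2.92 ± 0.151 (SD, n = 3) counts for each count on these markers with AAV-GFP against 3.18 ± 0.516 (SD, n = 4) with AAV-GSTA4. The libraries of the groups overlapped in this ratio, at 2.86, 3.09 and 2.80 with AAV-GFP and 3.81, 2.59, 3.32 and 2.99 with AAV-GSTA4. Without Enpp2 among the markers, which encodes autotaxin and held 41.7% to 60.8% of their sum, the ratio was 6.29, 5.30 and 5.57 with AAV-GFP and 8.05, 6.05, 8.46 and 7.19 with AAV-GSTA4, again with an overlap.

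**Figure D3:**
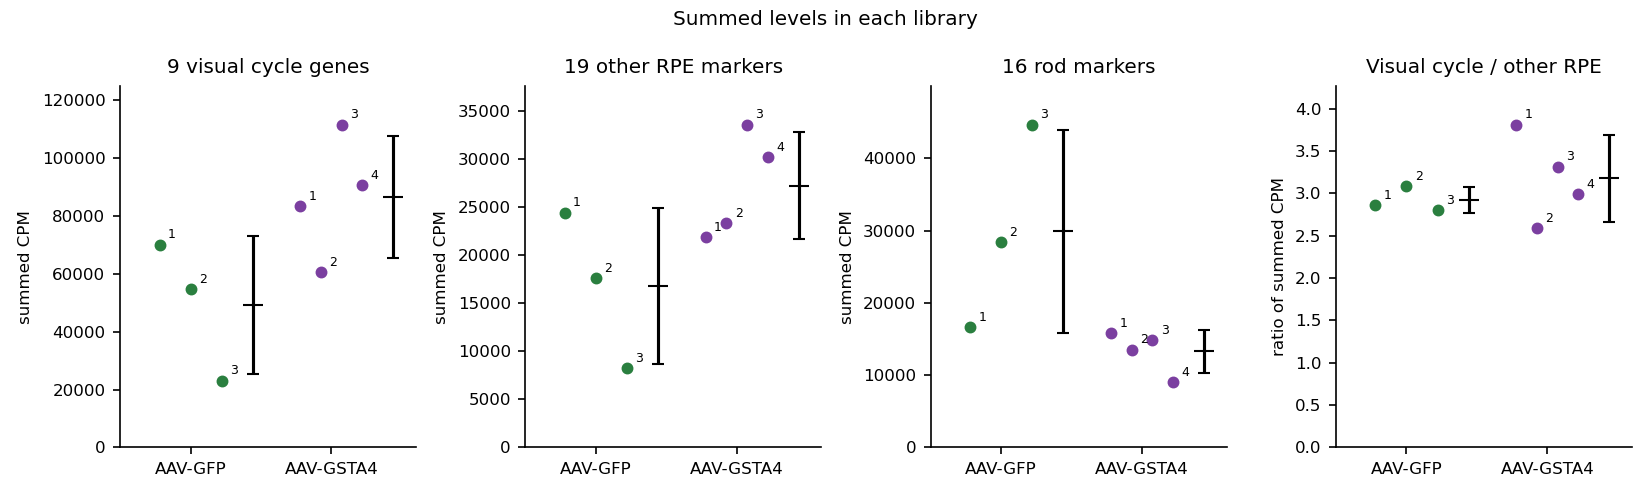
Summed TMM-scaled CPM of the 9 visual cycle genes, 19 other RPE markers and 16 rod markers, and the ratio of the first sum to the second, in each library (points, labelled by replicate) with mean ± SD per group (n = 3 and 4). AAV-GFP replicate 3 is lowest in both RPE sums and highest in the rod sum, and the ratios run from 2.59 to 3.81 with the groups overlapping.

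When libraries were scaled to those RPE markers instead, the fold changes shrank. The median of the 9 became 0.07, while the median of all genes moved to -0.998. With unscaled library totals the all-gene median was -0.37. Set against the all-gene median of the same scaling, the median of the 9 lay 0.83 higher with TMM, 0.88 higher with unscaled totals and 1.07 higher with RPE markers. A change of scaling moves all genes by similar amounts, and taking off the all-gene median largely undoes it. These differences are therefore not separate checks of the 9 genes. Under RPE marker scaling Lrat was at 0.41 ± 0.22 (SE; edgeR adjusted p = 0.191), and it was the only one of the 9 genes whose groups did not overlap. The share of all genes without overlap was not taken under this scaling. Stra6 was at 0.34 ± 0.33 and Rgr at 0.23 ± 0.18 (SE), Rpe65 and Rdh5 at 0.11 and 0.07, and Rlbp1, Rrh and Ttr turned to -0.07, -0.02 and -0.10. Rdh10 was at -0.71 ± 0.45 (SE) with an edgeR p of 0.147 and an adjusted p-value of 0.245. Without Enpp2 in the scaling, the median of the 9 was 0.33, Lrat was at 0.66 and Rlbp1, Rrh and Ttr were at 0.18, 0.24 and 0.18.

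**Figure D4:**
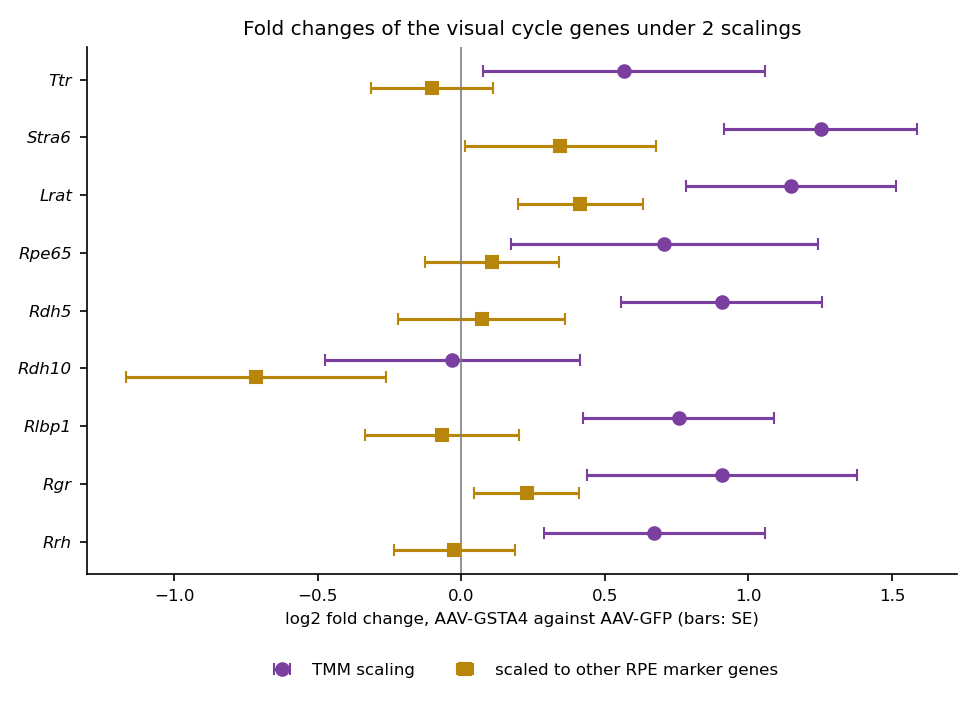
Log2 fold change of each visual cycle gene in AAV-GSTA4 against AAV-GFP (horizontal axis) with SE bars, under TMM scaling (circles) and scaling to 19 other RPE markers (squares). With TMM 8 of 9 genes lie above 0, from 0.57 to 1.25, whereas with RPE marker scaling 5 do and Rlbp1, Rrh, Ttr and Rdh10 lie below 0.

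Markers of neighbouring cells were measured beside these values, and 0 of those on the lists below passed in edgeR. All 16 rod markers had a negative log2 fold change, with a median of -1.20. Of these, 15 had an unadjusted p-value under 0.05, where 6.63% of all genes were lower at that level. DESeq2 called 4, where it called 0.783% of genes as lower. The summed level of the rod markers was 16659 to 44634 CPM in AAV-GFP and 9009 to 15855 CPM in AAV-GSTA4. The library with the most rod transcripts, AAV-GFP replicate 3, was the library with the lowest levels of 8 of the 9 visual cycle genes. All 10 cone markers were negative as well. Beside the same shares, 5 of them had an unadjusted p-value under 0.05 and 3 were called by DESeq2. Their sum was 448 to 1106 CPM and 277 to 486 CPM, with an overlap between the groups. Of 9 Müller glia markers 4 were positive and 5 negative, with a median of -0.33, and DESeq2 called 1, Car2, as lower. Their sum was 5071 to 6577 CPM in AAV-GFP and 7516 to 9909 CPM in AAV-GSTA4, and most of it was Apoe, the lipid carrier that the RPE also makes, at 3289 to 8975 CPM. Of the other members of that list, glutamine synthetase Glul was at 341 to 486 CPM (log2 fold change 0.20), Dkk3 at 188 to 998 CPM (-0.33) and the glutamate transporter Slc1a3 at 13.7 to 139 CPM (-1.43). Summed lens markers were 3238 to 14275 CPM in AAV-GFP and 5054 to 133304 CPM in AAV-GSTA4, highest in AAV-GSTA4 replicate 2, which had the lowest summed visual cycle level of its group. All 9 lens markers tested were positive, with a median of 2.46. An unadjusted p-value under 0.05 was found for 7 of them, where 5.27% of all genes were higher at that level. The groups overlapped for each of the 9 lens markers. Of 10 macrophage and microglia markers 9 were negative, with a median of -0.51, while their sum was 442 to 834 and 645 to 899 CPM. The positive one, the receptor Csf1r, was at 127 to 258 CPM in AAV-GFP and 290.3 to 567 CPM in AAV-GSTA4. Of 8 endothelial markers 7 were negative, with a median of -0.76 and sums of 31.2 to 154 and 36.6 to 58.7 CPM. Fibroblast markers (3 of 6 positive) summed to 174 to 946 and 298 to 634 CPM, and choroidal melanocyte markers (2 of 4 positive) to 67.4 to 125 and 68.6 to 100.7 CPM. Ciliary and choroid plexus epithelium, where Ttr is also made, gave marker sums of 649.7 to 1065 and 889 to 1460.0 CPM, with 2 of 8 markers positive. All 13 mitochondrially encoded genes were negative, with a median of -0.44, and summed to 13581 to 42135 CPM in AAV-GFP and 20203 to 27490 CPM in AAV-GSTA4. No marker on these lists was at 0 in all libraries. The part of these transcripts in the values of the visual cycle genes was not tested.

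Y-linked transcripts were present in AAV-GFP replicate 1 and AAV-GSTA4 replicates 3 and 4 and near 0 in the other 4 libraries, so the differences were also taken class by class. In the 3 libraries that had them, 8 of the 9 genes were higher in AAV-GSTA4, with a median difference of 0.58 in log2 CPM. Among the 4 libraries without, 9 of 9 were higher, with a median of 0.84. Stra6 differed by 1.29 and 1.03 in these classes, Lrat by 0.78 and 1.36, and Rpe65 by 0.24 and 1.11. Rdh10 differed by -0.75 and 0.28. With 1 to 2 libraries per group these values carry no test.

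Levels of different genes were compared per length, as CPM per kilobase of annotated exon. Ttr (12536 ± 3816, SD, n = 4, in AAV-GSTA4) and Rgr (10248 ± 2336) were the most abundant, followed by Rpe65 (4432 ± 1440.0), Rlbp1 (1349 ± 304), Rdh5 (1159 ± 335), Lrat (544 ± 103), Stra6 (330.5 ± 105), Rdh10 (254 ± 145) and Rrh (141 ± 32.6). In AAV-GFP the levels were 8468 ± 4604 (SD, n = 3) for Ttr, 5462 ± 2689 for Rgr, 2715 ± 1934 for Rpe65, 798 ± 197 for Rlbp1 and 618 ± 151 for Rdh5. There Rdh10 (259 ± 89.0) stood beside Lrat (245 ± 103), and Stra6 (139 ± 19.3) and Rrh (88.5 ± 42.3) were the lowest. The order from Rgr through Rpe65, Rlbp1 and Rdh5 to Lrat was the same in all 7 libraries. Ttr exceeded Rgr in 6 of 7, but the spreads of this pair overlapped in both groups. The place of Rdh10 differed between the groups. Lrat exceeded Rdh10 in 1 of 3 AAV-GFP libraries and in 4 of 4 AAV-GSTA4 libraries. Rdh10 exceeded Stra6 in 3 of 3 AAV-GFP libraries and in 1 of 4 AAV-GSTA4 libraries. This difference in order was not tested.

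By position on GRCm38 (GENCODE M21), Rpe65 lies at chr3:159599175-159625321 (plus strand), Lrat at chr3:82892579-82903973 (minus) and Rrh at chr3:129804408-129822587 (minus). Rdh5 lies at chr10:128913593-128922888 (minus), Rdh10 at chr1:16105774-16133734 (plus), Rlbp1 at chr7:79374870-79387048 (minus) and Rgr at chr14:37034909-37048964 (minus). Stra6 lies at chr9:58063788-58153996 (plus) and Ttr at chr18:20665280-20674321 (plus). The 3 members on chromosome 3 are far apart, and all 9 are protein-coding genes counted over their exons.

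The wider retinoid pathway had no common direction. Of 48 further retinoid genes in 5 lists, 42 were expressed enough to be tested. Of these, 18 had a positive and 24 a negative log2 fold change, with a median of -0.17, and 0 passed in edgeR's test or in DESeq2. Before adjustment, p-values under 0.05 numbered 2 higher (5.27% of all genes) and 2 lower (6.63%). The groups did not overlap for 2 higher (6.44% of all genes) and 1 lower (5.61%) of the 42.

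The photoreceptor side of the cycle differed within itself. Rdh12, which reduces all-trans-retinal in photoreceptor inner segments, was at 178 ± 87.1 CPM (n = 3, SD) with AAV-GFP against 82.1 ± 22.7 CPM (n = 4, SD) with AAV-GSTA4, or a log2 fold change of -1.12 ± 0.35 (SE; edgeR adjusted p = 0.363). Rbp3, the retinoid carrier between photoreceptors and RPE, was at 1308 ± 1029.6 CPM (n = 3, SD) against 579 ± 173 CPM (n = 4, SD), or a log2 fold change of -1.17 ± 0.50 (SE). Rdh8, the outer-segment retinol dehydrogenase, was scarce at 0.383 to 2.93 CPM, with a log2 fold change of -1.26 ± 0.84 (SE). Abca4, the flippase that clears retinal conjugates and is found in rods and also in RPE, was at 537 ± 159.8 CPM (n = 3, SD) against 637 ± 128 CPM (n = 4, SD), or a log2 fold change of 0.25 ± 0.29 (SE). The groups overlapped for all 4 genes, and Rdh8, Rdh12 and Rbp3 were highest in AAV-GFP replicate 3, the library with the most rod transcripts.

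Among genes of retinoid binding and uptake, 5 of 10 were positive. Lrp2, the endocytic receptor megalin that takes up retinol-binding protein, was at 49.4, 42.6 and 45.4 CPM with AAV-GFP and 106, 62.2, 99.3 and 70.2 CPM with AAV-GSTA4. Its groups did not overlap, and its log2 fold change of 0.88 ± 0.24 (SE) had an adjusted p of 0.363 in edgeR and 0.0511 in DESeq2. Rbp2, a cellular retinol-binding protein, was at 25.9 to 29.4 CPM in AAV-GFP and at 2.52, 12.9, 3.58 and 28.1 CPM with AAV-GSTA4, and Cd36, a scavenger receptor for lipids and carotenoids, was at 24.6 to 64.5 and 14.5 to 36.8 CPM. The groups overlapped for both. Fabp5, a fatty acid-binding protein that also binds retinoic acid, was at 1173 CPM in AAV-GSTA4 replicate 2 and at 35.6 to 132 CPM in the other 6 libraries.

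Among other oxidoreductases and esterification enzymes, 9 of 17 were positive. Retsat, which saturates retinol, went from 50.3 ± 9.47 CPM (n = 3, SD) to 92.3 ± 28.7 CPM (n = 4, SD), or a log2 fold change of 0.87 ± 0.28 (SE; edgeR adjusted p = 0.363). Its groups overlapped only because AAV-GSTA4 replicate 2, at 60.4 CPM, lay below AAV-GFP replicate 1, at 61.2 CPM. Dhrs4 was at 17.8 to 25.1 CPM in AAV-GFP and 26.9 to 35.8 CPM in AAV-GSTA4, and Dhrs7 at 54.4 to 60.3 and 37.3 to 47.7 CPM. Both encode short-chain dehydrogenases, and their groups did not overlap, Dhrs4 being higher and Dhrs7 lower in AAV-GSTA4, with edgeR adjusted p-values of 0.426 and 0.429. Rdh1, a retinol dehydrogenase, was at 1.70 to 6.24 and 1.26 to 2.14 CPM. Enzymes that make or clear retinoic acid (1 of 5 positive) and retinoid nuclear receptors (2 of 6 positive) had medians of -0.43 and -0.30.

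**Figure D5:**
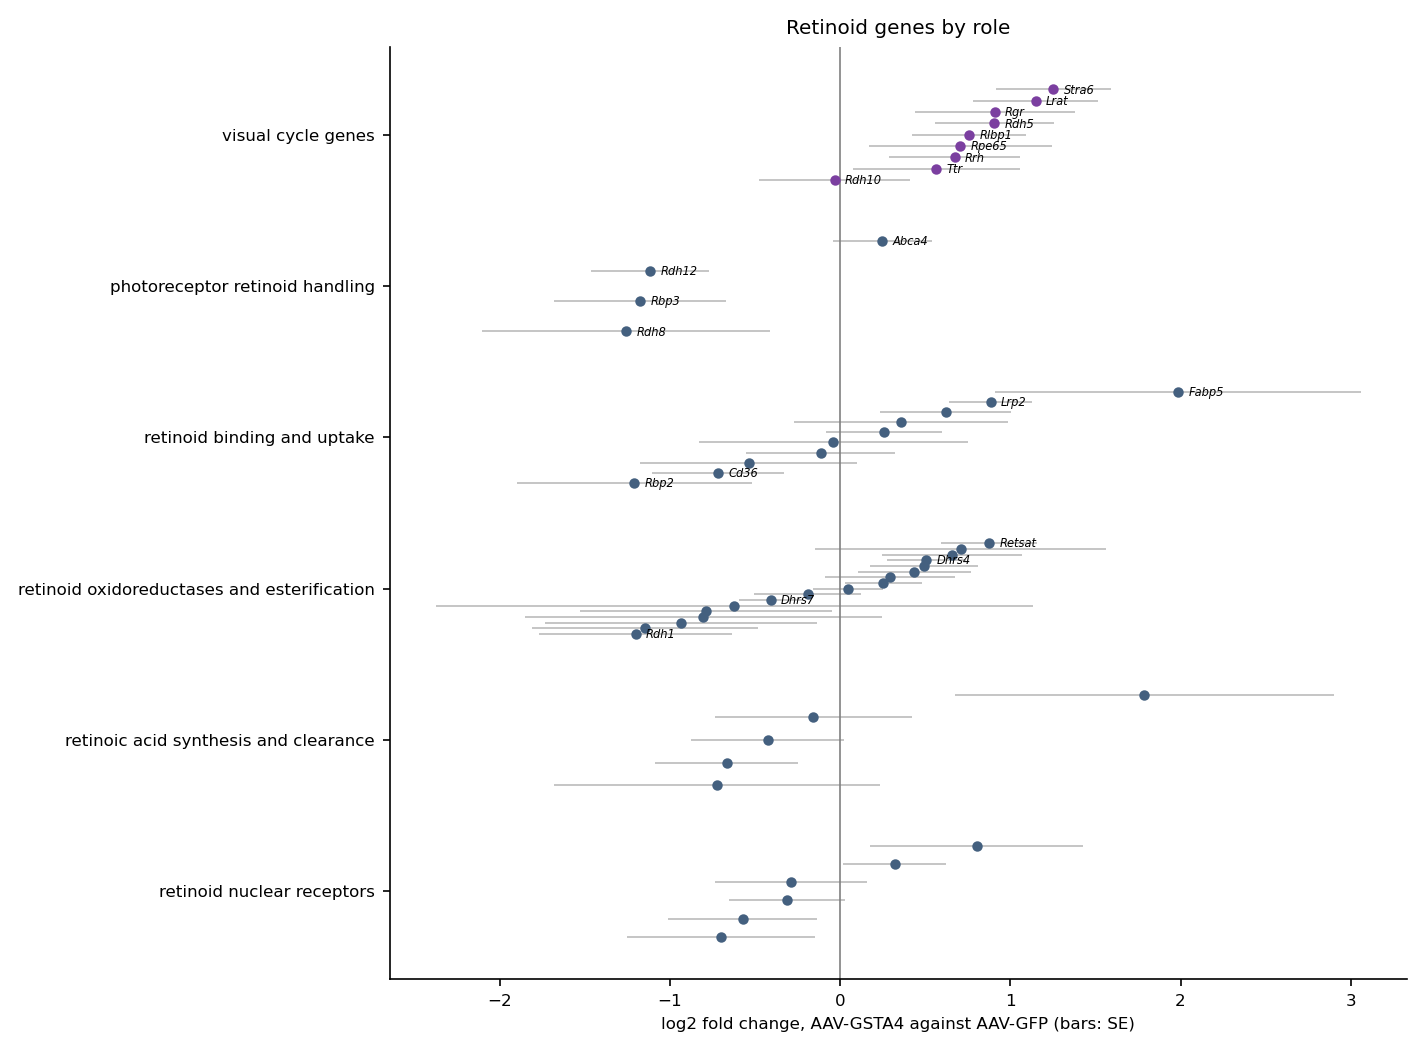
Log2 fold change in AAV-GSTA4 against AAV-GFP with TMM scaling (horizontal axis) of the 9 visual cycle genes and of 42 further retinoid genes in 5 lists, each point a gene and each bar its SE. The visual cycle genes lie between -0.03 and 1.25, and 3 of the 4 photoreceptor genes lie below -1.

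The genes whose log2 CPM followed that of Rpe65 most closely over the 7 libraries, outside the 9, were Kcnj13 (Pearson's r = 0.994), Tmem237 (0.993), Snapin (0.992), Jakmip2 (0.991) and Degs1 (0.991). Kcnj13 encodes the apical potassium channel of the RPE. It was at 1414, 929 and 357 CPM with AAV-GFP and 1236, 1116, 1899 and 1767 CPM with AAV-GSTA4, so its lowest and highest libraries were those of Rpe65. Degs1, a sphingolipid desaturase that has also been described as a retinol isomerase, was at 1531, 1134 and 463 CPM and 1327, 1307, 2054 and 1887 CPM. The groups overlapped for all 5 genes, with log2 fold changes from 0.36 to 0.75 and adjusted p-values from 0.466 to 0.665 in edgeR's test.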

How the data were processed

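RNA-seq counts were analysed for 7 libraries of aged mouse RPE. The authors deposited 1 table of raw counts per gene symbol and library. Per the submitters' processing notes, STAR 2.7.1a and featureCounts 1.6.2 were used and the mouse build was GRCm38 (mm10). The annotation release, strand setting and multi-mapping rule are not given in the sources used here. Per the labels' protocols, cDNA came from SMART-Seq v4 and libraries from Nextera XT. Molecular identifiers do not appear there, and the floor of 3 counts covers counting error only. Columns were matched to samples by library name, and replicates follow the sample titles. Symbols on several rows (24) were kept as separate rows.

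Group was the only factor in a quasi-likelihood fit with edgeR 4.0.16 in R 4.3.3, using TMM scaling, the default expression filter, robust dispersions and Benjamini-Hochberg adjustment over all genes tested, with a threshold of 0.05. The fit was tested on simulated data. The SE was taken from the log2 fold change and its F statistic. Intervals were built gene by gene, without adjustment for the number of genes. CPM values are TMM-scaled, and log2 CPM used a prior count of 2. Alternatives used DESeq2 1.42.0, limma-voom (limma 3.58.1), other scalings and filters, replicate blocks, a covariate for Y-linked transcripts and each library left out. Exon lengths came from GENCODE M21 and sequences from RefSeq. A separate reference list of gene names held 98.2% of the symbols.

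The 9 genes, the gene lists and the tests were chosen with earlier results of these data known. Named besides the 9 were the 4 photoreceptor retinoid genes, the 10 further retinoid genes with the smallest p-values, and the 5 genes of mean log2 CPM of at least 2 most like Rpe65. Cldn19, Best1, Mlana, Pmel, Tyrp1, Dct, Enpp2, Sulf1, Apoe, Car2, Glul, Dkk3, Slc1a3 and Csf1r were named after their values were seen.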

Additional observations from a re-analysis of the deposited data

Results flagged for a closer look

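Fabp5 in the AAV-GSTA4 group had a library far from the other 3: replicate 2 was at 1173 CPM, against 97.7, 47.6 and 91.1 CPM in replicates 1, 3 and 4. The gap to the nearest library was 0.956 of the range of the group, above the limit of Dixon's test at 95%. It was 1 of 29 results examined in this way, where chance gives about 5%. Only values of the AAV-GSTA4 group were examined. The 29 include genes that vary together and a sum of them, so they are not independent. AAV-GSTA4 replicate 2 was also the library with the highest summed lens markers, at 133304 CPM.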

How the results depend on the processing

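Of the 9 genes, 0 passed in edgeR and limma-voom under every alternative, and 2 passed in DESeq2 (log2 fold changes of 1.16 for Lrat and 1.27 for Stra6). Over all genes 199 passed in DESeq2, and the cause was not tested. With a replicate block, by title numbers or by library numbers, 1 gene passed, the transgene row hGSTA4, and none of the 9. The numbers did not pair the samples: correlations of deviations were -0.09 to 0.01 by titles and -0.13 to 0.01 by library names, and 0 of 3 and 1 of 3 AAV-GFP libraries correlated best with their own number. The fits that each left out a library called 0 to 1 genes, hGSTA4 without AAV-GSTA4 replicate 3. The difference in summed level, 37200 CPM, was 14300 without Rgr and 24130 to 47610 with a library left out.

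The median of the 9 was 0.0701 with RPE marker scaling and 0.33 without Enpp2, the latter chosen after the data were seen, as were the counts without overlap under other settings. It lay between 0.51 and 1.09 in all other alternatives, and between 0.57 and 1.00 with a library left out. Rlbp1, Rrh and Ttr turned to -0.069, -0.024 and -0.103 with RPE marker scaling only. Rdh10 turned to 0.016 and 0.10 with the blocks and ranged from -0.48 to 0.21 with a library left out. Each of the 9 genes had at least 5098 counts in every library, and the limits set by depth and by group size were not compared.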
